A study of Drosophila melanogaster with 9 samples.

Results

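Open chromatin of wild-type ovarian somatic cells (OSCs) was compared with that of whole ovaries from w1118 flies, using 4 of the 9 ATAC-seq libraries of a Drosophila melanogaster series. ATAC-seq uses a transposase that inserts sequencing adapters into accessible DNA, so that accessible sites appear as peaks of insertions. The WT OSC group (n = 2 libraries of 50000 cells each) came from a single cultured female line of follicle cell origin, which holds no germ cells and is wild type for l(3)mbt, a gene that was deleted in other cells of the study. The w1118 ovary group (n = 2 libraries of 6 ovaries each) came from intact ovaries dissected from yeast-fed females and lysed directly, so that germ cells and every somatic cell type of the ovary were measured together. The libraries of the l(3)mbt knockout line (n = 2) and of ovaries from a strain with GFP fused to vas (vas-GFP, n = 3, with 6, 10 and 30 ovaries) served only to look up regions in material not used to choose them. The study describes its replicates as distinct samples, and no label says whether these were separate cultures or separate groups of flies, so the p-values below measure the spread between these libraries, which may be technical. To compare libraries with unequal lists, the 22037 peaks with the highest −log10 q were taken from each, a number set by the shortest list. These top peaks merged into 37209 regions, of which 21088 lay within 1 kb of an annotated transcription start site (TSS) and are called promoter regions, and 16121 were distal.

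The egg chamber is a cyst of nurse cells and an oocyte wrapped in a follicular epithelium. Stem cells and escort cells in the germarium exchange Hedgehog, Wnt, BMP, JAK/STAT and Notch signals with the germline, and follicle cells later secrete yolk proteins, the vitelline membrane and the chorion. OSCs resemble early follicle cells and are grown without the germline, the stroma or the late follicle cells. Accessible promoters mark genes that can be transcribed, many of them used by all cells, while distal accessible sites are often enhancers and differ more between cell types. Nurse cells and late follicle cells are polyploid, so they contribute more DNA per cell to an ovary library than stem cells do. In whole ovaries, fewer cells of a type and less accessible DNA per cell cannot be told apart.

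OSC replicate 1 stood apart from the other libraries. Its list held 59420 peaks, against 22037 in OSC replicate 2 and 24890 and 23170 in the ovaries. Its top peaks had a median width of 308 bp, against 163 bp in OSC replicate 2 and 186 and 174 bp in the ovaries, and a median GC content of 52.5%, against 44.5% in OSC replicate 2 and 43% and 44% in the ovaries. The commonest local background at a peak, which follows the number of reads, was 19.1 and 8.93 in OSCs and 6.68 and 5.08 in ovaries. The main counts are therefore given with and without it, and its part in the differences was not tested.

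The cell identity of both materials was checked at promoters. All 6 OSC or follicle cell markers (tj, zfh1, Fas3, fs(1)Yb, piwi and eya) were open in all 4 libraries, where open means that a top peak overlapped the interval of 1 kb either side of a TSS. Among the germ cell markers, AGO3 and otu were open in both ovary libraries and neither OSC library, osk, aub and rhi were open in both ovary libraries and a single OSC library, and vas and ovo were open in all 4. With an interval of 0.2 kb, osk, aub and rhi were open in both ovary libraries alone, and vas in OSC replicate 2 alone. The hemocyte markers Hml and He were open in no library, and NimC1 and Pxn were each open in a single one (an ovary and an OSC library). Of the muscle markers, Mlc2 and Mef2 were open in all 4 libraries, Act57B in both OSC libraries and 1 ovary library, and Mhc in OSC replicate 1 alone. The neuronal gene elav was open in all 4 libraries and nSyb in none.

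The ovary libraries held a class of narrow peaks that was rare in OSCs. Peaks 92 to 95 bp wide made up 0.476% and 2.11% of the top peaks in OSCs (105 and 465 peaks) and 7.71% and 7.45% in ovaries (1699 and 1641 peaks). The commonest of these widths, 93 bp, is 20 bp more than the 73 bp to which each insertion was extended before peaks were called. The same class made up 1.43% and 1.87% of the top peaks of the l(3)mbt knockout OSCs and 9.69%, 7.08% and 5.55% of those of the vas-GFP ovaries, so that all 5 ovary libraries lay above all 4 OSC libraries. Of the 5726 regions open in both ovary libraries and neither OSC library, 1645 (28.7%) were at most 100 bp wide, and 1281 were 92 to 95 bp wide. Of the 3652 regions open in both OSC libraries and neither ovary library, 26 (0.712%) were at most 100 bp wide. At this wider limit the libraries do not divide by material, since peaks of at most 100 bp made up 2.80% of the top peaks in OSC replicate 1 and 21.3% in OSC replicate 2, against 20.0% and 22.5% in ovaries, and an OSC-only region needs a peak of OSC replicate 1. In the 1281 narrow regions A and T made up 71.4% of the central 20 bp, against 62.6% and 62.3% of the flanks, with a step at both edges of the central 20 bp. Wider ovary-only distal regions had a flat profile, with 55.2% in the centre and 55.3% on either side. A peak was found at 96.6%, 79.5% and 50.8% of the 1281 regions in the vas-GFP libraries, and at 0.781% and 1.80% in the knockout OSC libraries. What these peaks are was not tested. The counts of ovary-only regions are given below with and without regions of at most 100 bp.

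**Figure D1:**
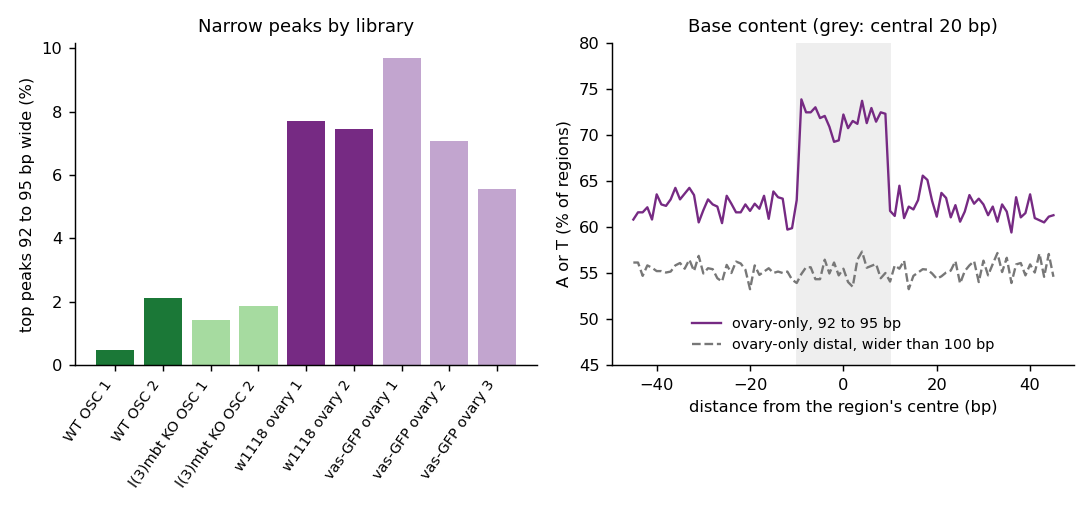
Left, the percentage of top peaks that were 92 to 95 bp wide in each of the 9 libraries (WT and l(3)mbt knockout OSCs in green, w1118 and vas-GFP ovaries in purple). Right, the percentage of regions with A or T at each distance from the region's centre in bp, for ovary-only regions 92 to 95 bp wide (solid, n = 1281) and ovary-only distal regions wider than 100 bp (dashed, n = 1936), with the central 20 bp shaded and a vertical axis that does not start at 0. The ovary libraries lie at 5.55% or more and the OSC libraries at 2.11% or less, and the solid line steps up within the shaded 20 bp.

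The narrow class is shown by 3 of its strongest distal members, read from the RefSeq genome sequence (dm6 coordinates, plus strand, 5′ to 3′), with the central 20 bp in capitals. They lie in an intron of dysf (chr3R:26080929-26081022), between genes near CG13978 (chr3R:27454140-27454232) and in an intron of prage (chrX:1813952-1814045). Their fold enrichment in the ovaries was 38.8 and 44.2 at dysf, 36.0 and 44.7 at CG13978 and 30.7 and 38.5 at prage, and A and T made up 80%, 75% and 65% of the capitals.
dysf narrow: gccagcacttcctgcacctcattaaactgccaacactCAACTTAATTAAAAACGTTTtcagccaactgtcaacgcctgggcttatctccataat
CG13978 narrow: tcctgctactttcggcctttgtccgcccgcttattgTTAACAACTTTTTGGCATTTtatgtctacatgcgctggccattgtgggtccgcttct
prage narrow: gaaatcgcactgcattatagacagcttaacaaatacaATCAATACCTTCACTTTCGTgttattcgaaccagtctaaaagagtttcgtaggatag

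The wide distal regions of either class are shown by 200 bases around the summit, each the strongest, among the introns and intergenic sites considered for display, that holds the motif in capitals (on either strand). The OSC-only regions lie between genes near Marf1 (chr2L:22282545-22282744, with GGAATG, the word bound by Scalloped, the TEAD factor of the Hippo pathway) and in an intron of CG31677 (chr2L:20585708-20585907, with GTAAACA, a forkhead word). The ovary-only regions lie in introns of Pka-C3 (chr3L:15938441-15938640, with CAGGTA, the word bound by the pioneer factor Zelda) and Gapvd1 (chrX:11326480-11326679, with CCGTTA, the word bound by Ovo, found 2 times). Fold enrichment was 17.2 and 14.6 at the Marf1 region and 11.3 and 9.87 at the CG31677 region in OSCs, and 14.3 and 17.8 at the Pka-C3 region and 17.05 and 13.2 at the Gapvd1 region in ovaries.
Marf1 OSC-only: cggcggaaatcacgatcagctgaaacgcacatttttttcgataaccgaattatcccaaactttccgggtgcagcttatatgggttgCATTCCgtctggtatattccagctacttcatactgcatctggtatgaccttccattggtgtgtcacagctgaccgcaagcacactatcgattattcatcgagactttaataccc
CG31677 OSC-only: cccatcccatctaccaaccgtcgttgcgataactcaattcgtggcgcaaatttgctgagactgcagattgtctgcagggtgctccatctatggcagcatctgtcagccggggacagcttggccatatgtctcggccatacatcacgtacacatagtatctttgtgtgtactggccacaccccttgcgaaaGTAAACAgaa
Pka-C3 ovary-only: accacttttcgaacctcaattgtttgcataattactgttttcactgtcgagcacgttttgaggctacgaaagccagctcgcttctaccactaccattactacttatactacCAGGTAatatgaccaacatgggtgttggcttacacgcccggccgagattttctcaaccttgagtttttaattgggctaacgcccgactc
Gapvd1 ovary-only: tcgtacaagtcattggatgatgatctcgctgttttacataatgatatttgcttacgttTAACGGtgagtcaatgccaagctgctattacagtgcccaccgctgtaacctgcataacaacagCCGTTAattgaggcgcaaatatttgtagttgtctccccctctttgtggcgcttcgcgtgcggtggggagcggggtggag

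Regions open in a single material were mostly distal in OSCs and nearly balanced between promoters and distal sites in ovaries. OSC-only regions (open in both OSC and neither ovary library) numbered 3652, or 9.81% of all regions, and 34.0% of them were promoter regions. Ovary-only regions numbered 5726, or 15.4% of all regions, and 47.5% were promoter regions. The 8930 shared regions, open in all 4 libraries, were promoter regions in 85.6% of cases, and the remaining 18901 regions had other patterns. Distal regions alone gave 2412 OSC-only (15.0% of distal regions) and 3004 ovary-only (18.6%), of which 1936 were wider than 100 bp. With peaks of at most 100 bp left out before the top peaks were taken, a choice made after seeing the data, 2932 OSC-only and 4083 ovary-only regions were found, with 34.1% and 55.9% at promoters. Without OSC replicate 1, 7395 regions were OSC-only and 6439 ovary-only, with 36.0% and 50.6% at promoters. No test was run on these counts.

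**Figure D2:**
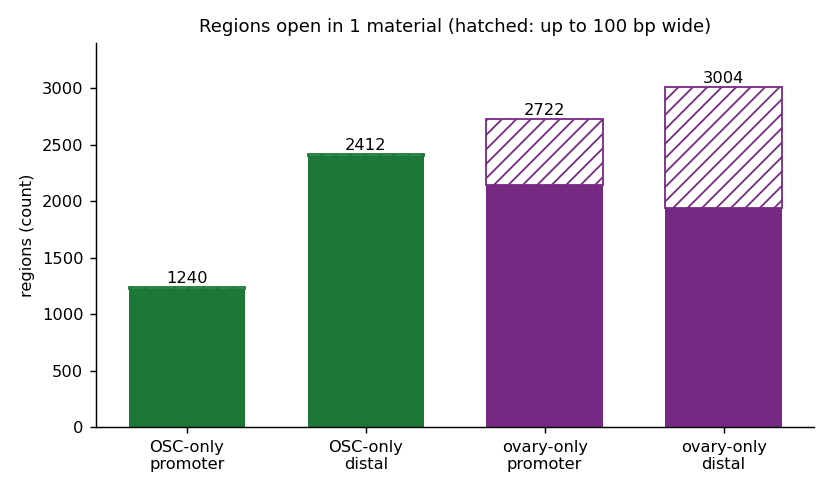
Number of OSC-only (green) and ovary-only (purple) regions among 37209 regions, split into promoter and distal regions, with hatching for regions at most 100 bp wide. OSC-only regions numbered 1240 at promoters and 2412 distal, and ovary-only regions 2722 at promoters and 3004 distal, and hatching is nearly missing from the OSC-only bars, which require a peak of OSC replicate 1, the library with few such narrow peaks.

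The same tendency held in single libraries. Top peaks lay at promoters in 59.3% and 68.4% of cases in OSCs and 72.7% and 70.8% in ovaries, a mean of 63.8% ± 6.45 in OSCs and 71.7% ± 1.31 in ovaries (SD, n = 2 each), a difference of −7.91 percentage points. The groups did not overlap, and the exact permutation test gave a two-sided p of 0.333, the smallest that 2 against 2 libraries allow. OSC replicate 2 lay closer to the ovaries than OSC replicate 1 did. The number of genes with an open promoter overlapped between the groups, with 10317 and 9687 in OSCs and 9887 and 9778 in ovaries. Regions overlapped more within ovaries than between OSC replicates: the Jaccard index (regions in both over regions in either) was 0.471 between the OSC libraries and 0.783 between the ovary libraries. OSC replicate 2 shared regions with the ovary libraries at 0.448 and 0.438, close to its overlap with OSC replicate 1, whereas OSC replicate 1 did so at 0.307 and 0.311.

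Both classes were found again in libraries that were not used to choose them, although the lists of vas-GFP replicates 2 and 3 held only 20107 and 16588 peaks. OSC-only regions had a top peak in 82.8% and 72.8% of cases in the l(3)mbt knockout OSCs and in 8.84%, 6.30% and 4.96% in the vas-GFP ovaries. Ovary-only regions had one in 9.55% and 13.7% of cases in the knockout OSCs and in 81.9%, 72.7% and 52.6% in the vas-GFP ovaries. Restricted to ovary-only regions wider than 100 bp, the shares were 11.7% and 15.9% in knockout OSCs and 80.1%, 74.3% and 56.0% in vas-GFP ovaries. Over all regions the shares were 50.3% and 49.5% in knockout OSCs and 50.9%, 45.7% and 37.6% in vas-GFP ovaries. In the full lists, 211 and 80 of the OSC-only regions held a weaker peak in the ovary libraries, and 936 of the ovary-only regions held a weaker peak in OSC replicate 1.

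At promoters, 655 genes were OSC-only (3.58% of 18277 genes) and 756 were ovary-only (4.14%), against 7774 open in all 4 libraries. Both materials therefore shared most of their open promoters. Of the OSC-only promoters, 441 (67.3%) were open in both knockout OSC libraries, and of the ovary-only promoters, 439 (58.1%) were open in all 3 vas-GFP libraries. When absence was required from the full and the merged lists as well, 545 OSC-only and 288 ovary-only promoters remained. With a promoter of 0.2 kb either side of a TSS the counts were 370 and 674. Without OSC replicate 1 they were 904 and 1018, and without OSC replicate 2 they were 2023 and 1476.

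Of the 12 OSC-only promoters with the highest lower fold enrichment, 3 belong to genes of cell surface proteins. Con, which encodes the homophilic adhesion protein Connectin, had a fold enrichment over local background of 15.5 and 11.96 in OSCs, and the nearest top summits in the ovaries lay 4392 and 6304 bp from a TSS, although the full list of ovary replicate 2 held a weaker peak at the promoter. klg, which encodes the immunoglobulin adhesion protein Klingon, had 16.1 and 8.56 in OSCs, with the nearest ovary summits 70577 and 77544 bp away. dpr16, of the Dpr family of immunoglobulin surface proteins, had 13.6 and 8.26. All 3 were open in both knockout OSC libraries, and among the vas-GFP libraries Con was open in 2, klg in 1 and dpr16 in none. dimm, the bHLH factor of peptide-secreting cells, had 12.5 and 8.24 in OSCs, and MFS3, a transporter of the major facilitator family, had 7.40 and 7.59. The other 7 promoters named by rank (CG34353, CG14072, CG43210, thw, CG1299, CG9416 and CG9411) ranged from 7.52 to 17.3. CG34353 was open in all 3 vas-GFP libraries, CG9416 in 2 and CG43210 in 1, while all 12 genes were open in both knockout OSC libraries and 7 in no vas-GFP library. In 10 of these 12 genes the higher value was that of OSC replicate 1, and leaving it out cannot remove a gene from this class. When absence from the full and merged ovary lists was required, 9 of the 12 remained.

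The strongest ovary-only promoters had higher fold enrichments, as ovary peaks did in general. The median of top peaks was 3.26 and 3.68 in OSCs and 5.81 and 5.52 in ovaries, so levels cannot be set side by side between materials. pot, which encodes the zona pellucida domain protein Papillote, had 18.6 and 18.8 in ovaries, and its nearest OSC summits lay 1726 and 1832 bp from the TSS. ClC-a, a chloride channel, had 18.5 and 18.8, Idua, the lysosomal alpha-L-iduronidase, had 20.5 and 16.6, and Ggt-1, a gamma-glutamyl transpeptidase, had 16.002 and 15.5. CG11069 and CG31121 are divergent neighbours that share a peak (15.01 and 15.8). CG40006 (20.9 and 21.6), CG7149 (19.8 and 17.8), CG14830 (16.2 and 15.7), CG1806 (16.5 and 15.4) and Mec2 (16.2 and 14.5) completed the list with mthl8. Of these 12, 11 were open in all 3 vas-GFP libraries, and mthl8, a methuselah-like receptor gene with 21.2 and 19.7 in w1118 ovaries, was open in none of them. In the knockout OSCs Mec2 was open in both libraries and ClC-a in 1. Only mthl8 and CG1806 remained when absence from the full and merged OSC lists was required, since the other 10 had a weaker peak in the full list of OSC replicate 1. All 24 promoters kept their class among peaks wider than 100 bp.

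**Figure D3:**
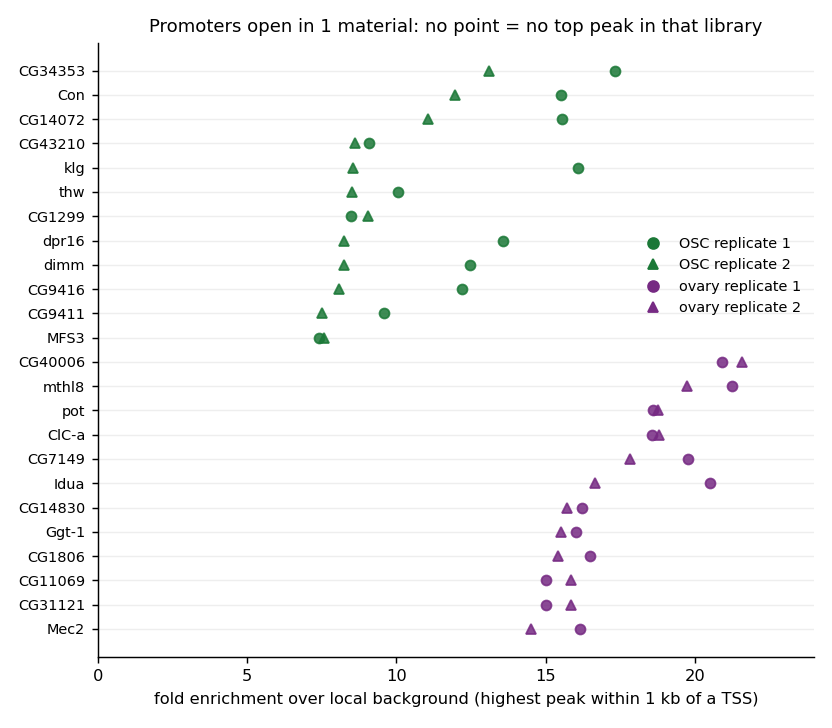
Fold enrichment over local background (highest top peak within 1 kb of a TSS) at the 12 OSC-only promoters (upper rows) and 12 ovary-only promoters (lower rows) with the highest lower value, with circles for replicate 1 and triangles for replicate 2 of OSCs (green) and w1118 ovaries (purple). A library without a top peak has no point, and OSC values run from 7.40 to 17.3 and ovary values from 14.5 to 21.6.

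The eggshell and yolk genes, products of late follicle cells, differed most among the gene lists. All 23 had an open promoter in both ovary libraries, against 6 in both OSC libraries, while over all genes 52.0% were open in both ovary and 47.1% in both OSC libraries. Of the 23, 6 were ovary-only. pip, which encodes the sulfotransferase that sets the dorsoventral axis of the egg, had a fold enrichment of 12.3 and 7.54 in ovaries, and ndl, a protease of the same pathway, had 8.17 and 6.78. The chorion gene Cp7Fa had 6.75 and 8.23, the vitelline membrane genes Vm26Ac and psd had 5.06 and 5.08, and 5.36 and 4.47, and Femcoat had 3.16 and 4.32. None of these 6 had a top peak within 1 kb of a TSS in OSCs, and all but ndl had a weaker peak in the full list of OSC replicate 1. Without OSC replicate 1 the ovary-only count was 16, with peaks wider than 100 bp it was 9, and with absence from all OSC lists only ndl remained. Over all 18277 genes the ovary-only counts in these settings were 1018, 736 and 288. Where OSC replicate 1 had a top peak at a gene closed in OSC replicate 2, its value was 2.46 to 4.32, as at Vm34Ca, with 4.32 in OSC replicate 1 and 15.3 and 12.6 in ovaries. The yolk protein genes Yp1 and Yp2 had the same ovary peaks, 7.78 and 7.50, with 2.98 (Yp1) and 3.01 (Yp2) in OSC replicate 1 and no top peak within 1 kb of their TSSs in OSC replicate 2. dec was strong in both materials, with 8.66 and 6.95 in OSCs and 11.9 and 10.6 in ovaries.

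**Figure D4:**
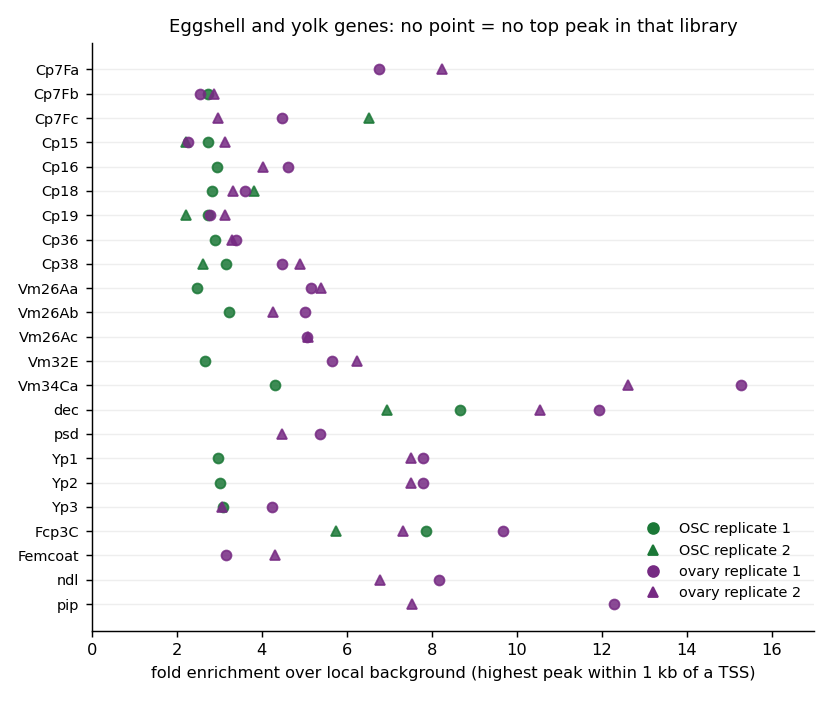
Fold enrichment over local background (highest top peak within 1 kb of a TSS) at the promoters of 23 eggshell and yolk genes, with circles for replicate 1 and triangles for replicate 2 of OSCs (green) and w1118 ovaries (purple), and no point where a library had no top peak. Every gene has both purple points, and 6 genes have both green points.

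Genes of ovarian signalling and follicle cell identity were mostly open in both materials, with a few members open in OSCs alone. hh, the Hedgehog ligand that terminal filament and cap cells produce in the germarium, had 8.85 and 6.06 in OSCs, with summits 6 and 4 bp from the TSS, and the nearest ovary summits were 13883 and 6062 bp away. It was open in both knockout OSC libraries and in 2 of 3 vas-GFP libraries. Wnt2, a Wnt ligand, had 6.43 and 5.26 in OSCs, Ser, the Notch ligand Serrate, had 7.30 and 7.73, and E(spl)mgamma-HLH, a Notch target, had 2.64 and 2.71. Among follicle and escort cell transcription factors, cas (Castor, a zinc finger factor) had 6.77 and 7.20 in OSCs and the LIM homeobox gene Lmx1a had 3.04 and 3.25. cas, Lmx1a, Ser and Wnt2 were open in both knockout OSC libraries and in no vas-GFP library, and E(spl)mgamma-HLH was open in none of those 5 libraries. The counts of OSC-only members were 2 of 32 follicle and escort cell factors, 2 of 29 JAK/STAT, EGFR and Notch genes and 2 of 25 Hedgehog, Wnt and BMP genes, with 28, 25 and 22 shared and no ovary-only member. These shares of 6.25%, 6.90% and 8% stand beside 3.58% of all genes, on 2 genes each. Leaving out OSC replicate 1 cannot lower these counts, and they stayed at 2 each, against 904 of all 18277 genes. Without OSC replicate 2 they were 2, 2 and 3, against 2023 of all genes. In that setting rl, of the JAK/STAT, EGFR and Notch list, was ovary-only.

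The promoters of hh in OSCs, and of pot and dib in ovaries, are shown by the 200 bases before the TSS on the strand of the gene, 5′ to 3′, with GGAATG (hh) or CAGGTA (pot and dib) in capitals on either strand. They lie at chr3R:23141907-23142106 on the minus strand (hh), chrX:11917261-11917460 on the minus strand (pot) and chr3L:4062092-4062291 on the plus strand (dib), on dm6 from the RefSeq genome. dib encodes the ecdysone synthesis enzyme Disembodied, and its ovary-only peak had 6.51 and 4.93, with the nearest OSC summits 1522 and 1615 bp away.
hh OSC-only: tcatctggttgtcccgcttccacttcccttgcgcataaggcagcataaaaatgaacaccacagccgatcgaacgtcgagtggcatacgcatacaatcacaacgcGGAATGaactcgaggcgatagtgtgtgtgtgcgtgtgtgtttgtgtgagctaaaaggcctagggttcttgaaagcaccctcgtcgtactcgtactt
pot ovary-only: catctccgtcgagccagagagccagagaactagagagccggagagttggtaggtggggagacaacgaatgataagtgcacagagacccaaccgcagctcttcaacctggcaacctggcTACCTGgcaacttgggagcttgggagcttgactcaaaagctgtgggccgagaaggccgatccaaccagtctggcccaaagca
dib ovary-only: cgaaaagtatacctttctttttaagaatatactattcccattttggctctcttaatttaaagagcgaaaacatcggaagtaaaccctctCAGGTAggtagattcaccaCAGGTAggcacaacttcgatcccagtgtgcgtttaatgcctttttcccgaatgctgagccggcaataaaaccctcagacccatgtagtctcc

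Germline genes differed in whether their promoters were open in OSCs. In the list of 13 germline piRNA genes, 7 promoters (53.8%) were open in both OSC libraries and 11 (84.6%) in both ovary libraries. Over all genes these shares were 47.1% and 52.0%. BoYb and moon were closed in all 4 libraries. AGO3, a PIWI protein of the germline, was the ovary-only member, with 8.47 and 7.07 in ovaries and the nearest OSC summits 24866 and 24348 bp away. Without OSC replicate 2 the ovary-only members were 4 (AGO3, aub, qin and rhi), with peaks wider than 100 bp they were 3 (AGO3, aub and rhi), and without OSC replicate 1 AGO3 alone. Over all 18277 genes the ovary-only counts in these settings were 1476, 736 and 1018. Of 33 germline and oocyte genes, 27 were shared and otu, which encodes the deubiquitinase Ovarian tumor, was ovary-only with 4.23 and 3.67, a share of 3.03%, against 4.14% of all genes. The ovary-only members without OSC replicate 1 were 3 (osk, otu and bru1), against 1018 of all genes. Without OSC replicate 2 they were 2 (bam and otu), against 1476 of all genes. With a promoter of 0.2 kb the ovary-only members of these lists were 3 of 13 and 5 of 33, against 674 of all 18277 genes. Of 22 somatic and shared piRNA genes, 20 were shared and none was OSC-only or ovary-only, and Gasz was open in 1 ovary library alone. Cad74A, a cadherin gene of follicle cells, was the only ovary-only member of 26 adhesion and matrix genes, with 10.0 and 9.41 in ovaries. The lists of 18 Hippo pathway genes and targets, 8 Hox genes, 18 housekeeping genes and 85 ribosomal protein genes held no OSC-only or ovary-only member, with 15, 7, 17 and 75 shared, and all 23 cell cycle and replication genes were shared. Without OSC replicate 2, 8 ribosomal protein genes were ovary-only and the Hox gene Ubx was OSC-only. In that setting 1476 of all 18277 genes were ovary-only and 2023 OSC-only.

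Genes of tissues outside the ovary had single members of either class, at shares near those of all genes (3.58% OSC-only and 4.14% ovary-only) or resting on 1 gene. Among 18 muscle genes, Act87E, an actin gene, was OSC-only (3.38 and 2.92, with summits 605 and 586 bp from the TSS) and up, which encodes troponin T, was ovary-only (3.52 and 3.62). Among 15 neuronal genes, futsch, which encodes a microtubule-associated protein, was OSC-only (8.69 and 7.24) and Syn, which encodes Synapsin, was ovary-only (5.99 and 6.41, 910 and 407 bp from the TSS). Of 13 hemocyte and fat body genes Ppn, the matrix protein Papilin, was OSC-only (4.17 and 3.22), and of 14 testis genes mia was OSC-only (3.65 and 4.67) and ProtA, a protamine gene, ovary-only (7.82 and 12.2). Of 186 chemoreceptor genes, 138 were closed in all 4 libraries, 3 were OSC-only (Gr94a, Ir40a and Or88a) and 8 ovary-only, shares of 1.61% and 4.30%. The ovary-only testis genes were 4 without OSC replicate 1 (sa, aly, Mst87F and ProtA), and without OSC replicate 2 the OSC-only genes were 5 for muscle and 3 each for neurons, hemocytes and fat body, and testis. Over all 18277 genes, 1018 were ovary-only without OSC replicate 1 and 2023 OSC-only without OSC replicate 2. Of 21 ecdysone genes 18 were shared and dib was the only one open in one material.

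In 12 genes an OSC-only TSS and an ovary-only TSS stood side by side. At br, which encodes the Broad zinc finger factors of the ecdysone response, the OSC-only TSS had 6.24 and 5.19 in OSCs, and the ovary-only TSSs upstream of it had 11.9 and 3.11 in ovaries. nebu had 4.52 and 2.75 at the OSC-only TSS in OSCs and 21.5 and 20.0 at the ovary-only TSS in ovaries. cindr, which encodes an adaptor protein of cell junctions, had 3.28 and 2.52 in OSCs and 13.4 and 10.2 in ovaries, and Pura had 4.17 and 4.12 in OSCs and 14.5 and 14.1 in ovaries. At Pde8, a cyclic nucleotide phosphodiesterase gene, the values were 6.71 and 5.36 in OSCs and 13.1 and 5.94 in ovaries. The other 7 genes were CG15894, CG2765, CG2930, CG30015, CG6231, pdgy and snu. The classes of single TSSs do not show which transcript was made.

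OSC-only distal regions lay somewhat farther from TSSs than distal regions in general, and ovary-only ones at about the general distance. The median distance to the nearest TSS of any gene was 5188.5 bp for OSC-only, 4306 bp for ovary-only, 3635 bp for shared and 4204 bp for all distal regions, and 25.0%, 21.2%, 13.9% and 19.5% lay more than 10 kb away. Introns held 53.8% of OSC-only, 66.4% of ovary-only and 70.5% of shared distal regions, against 49.3% of all distal regions. Coding exons held 15.1%, 3.96% and 2.49%, against 25.5% of all distal regions. The OSC-only distal region with the highest lower fold enrichment lay between genes with Cadps as the nearest protein-coding gene (chr4:1318140-1319401), with 21.4 and 18.7 in OSCs, but it also held a top peak in all 3 vas-GFP libraries. Regions near isoQC (chr3L:20481456-20481679, 20.9 and 16.6, and chr3L:20477426-20477634, 14.7 and 12.96) and the Marf1 region shown above were open in both knockout OSC libraries and in no vas-GFP library. Those near CG9380 (17.5 and 15.2), near Tim23 (15.4 and 13.7), in Ppr-Y (18.2 and 16.6) and in CCY (11.9 and 12.5) were open in all 5 of the other libraries. So 5 of these 8 regions, though outside the top peaks of both w1118 libraries, were found in other ovaries.

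Of the 8 strongest ovary-only distal regions, 7 belonged to the narrow class. Besides dysf, CG13978 and prage they lay in the 3' UTR of Sox21b (93 bp, with 49.1 and 51.1 in ovaries), near B-H2 (26.7 and 29.4), in step (25.8 and 27.1) and in a coding exon of trx (25.7 and 25.3). The 8th, 714 bp wide in an intron of cic (chr3R:20274456-20275169), which encodes the repressor Capicua, had 26.0 and 24.5. Among regions wider than 100 bp, a list drawn up after these values were seen, cic was followed by introns of CG33158 (19.4 and 18.6), spir (17.7 and 18.4), mamo (17.5 and 18.1), Cam (17.9 and 17.4) and nmo (20.6 and 16.8) and by sites near CG3690 (18.0 and 18.6) and scyl (16.5 and 18.1). spir encodes an actin nucleator that the oocyte needs for its axes, and mamo a zinc finger factor of the female germline. All 8 were open in all 3 vas-GFP libraries, and 7 were closed in both knockout OSC libraries, the exception being Cam, open in 1 of them. No peak was found at 6 of the 8 in the full lists of either OSC library, although the authors' merged OSC list held one at mamo, and spir and scyl had a weaker one in OSC replicate 1.

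Some loci collected many distal regions of a class. inv, the homeobox neighbour of engrailed, had 11 OSC-only and no ovary-only region among 22 distal regions, and 10 and 11 of the 11 were open in the knockout OSCs and none in any vas-GFP library. pnt, the Ets factor of EGFR signalling, had 8 OSC-only and 1 ovary-only of 15, nkd and fz2, components of Wnt signalling, had 9 and 2 of 26 and 9 and 2 of 25, and the Wnt ligand genes wg and Wnt6 had 5 and 0 of 12 and 5 and 0 of 5. Among Hedgehog, Wnt and BMP genes, tkv (3 and 5 of 19), arr (0 and 2 of 6) and Mad (0 and 2 of 4) leaned to ovaries. fz, Dad, Wnt4 and fz3 had equal numbers of either class. In the whole list of 25 Hedgehog, Wnt and BMP genes, 66 of 223 distal regions were OSC-only (29.6%, against 15.0% of all distal regions) and 35 were ovary-only (15.7%, against 18.6%). Without OSC replicate 1, a count added after seeing the data, 53.5% were OSC-only, against 38.2% of all distal regions, and without OSC replicate 2 54.0%, against 49.8%. Tet (11 of 39), cv-c (12 of 36), CG42238 (15 of 48) and CG43759 (13 of 40) also ranked among the 8 genes with the most OSC-only distal regions.

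Among the genes with the most ovary-only distal regions, Eip75B and Hr4 encode nuclear receptors of the ecdysone response. Eip75B had 7 OSC-only and 13 ovary-only of 45 distal regions, and Hr4 had 1 OSC-only and 11 ovary-only of 30, and of the ovary-only ones 11 and 10 were wider than 100 bp. In the list of 21 ecdysone genes, 31 of 232 distal regions were OSC-only (13.4%) and 54 ovary-only (23.3%, against 18.6% of all distal regions). Of the other nuclear receptor genes, ftz-f1 leaned the same way, with 1 OSC-only and 5 ovary-only of 24. EcR had 5 OSC-only and 4 ovary-only, Eip78C 3 and 2, Hr39 1 and 1 and Hr3 0 and 1. The list was at 28.2% ovary-only without OSC replicate 1, against 27.5% of all distal regions, and at 29.5% without OSC replicate 2, against 23.6%. ed, which encodes the adhesion protein Echinoid, had 4 OSC-only and 12 ovary-only of 22, but 6 of the 12 were at most 100 bp wide. CG46467 had 15 ovary-only of 40, kek5 13 of 34, sbb 13 of 46 and spri 10 of 30. Among follicle and escort cell factors, 80 of 394 distal regions were OSC-only (20.3%) and 69 ovary-only (17.5%), with bab1 at 10 and 3 of 28 and mirr at 3 and 7 of 18. Without OSC replicate 1 41.3% were OSC-only, against 38.2% of all distal regions. Without OSC replicate 2 the order turned, with 44.6% against 49.8%.

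The most OSC-only distal regions of any gene fell beyond the last protein-coding gene of the X. ATbp was the nearest protein-coding gene for 90 distal regions spread over chrX:23151930-23531125, among ribosomal RNA genes and pseudogenes, of which 47 were OSC-only, none was ovary-only or shared, and 45 and 29 of the 47 were open in the knockout OSCs. When OSC replicate 1 was left out, 58 of 59 were OSC-only. Similarly, Ppr-Y on the Y had 12 OSC-only of 19 distal regions, all 12 open in both knockout OSC libraries, and Myo81F, which spans pericentromeric DNA of 3R, had 12 OSC-only and 9 ovary-only of 54, with 8 of the 9 at most 100 bp wide. The Y held 18 OSC-only and 4 ovary-only of 38 regions (47.4% and 10.5%), although both materials carry the label female. Top peaks on the Y made up 0.127% and 0.118% in OSCs and 0.0363% and 0.0272% in ovaries. Chromosome 4 had the opposite balance, with 18 OSC-only and 74 ovary-only of 351 regions (5.13% and 21.1%), and it held 0.576% and 0.962% of top peaks in OSCs and 1.22% and 1.09% in ovaries (exact permutation p of 0.333 for either chromosome, the smallest possible). How many copies of a repeated sequence each peak stands for was not tested. At lncRNA:flam, the piRNA cluster that follicle cells express, added here after its values were seen, 3 of the 9 regions over its length (chrX:21631891-21790731) were OSC-only, 2 were ovary-only and 1 was shared, and all 3 OSC-only regions were open in 1 knockout OSC library and 1 of them in the other.

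Differences in strength were tested at the 8930 shared regions. limma on log2 fold enrichment, quantile normalized between the 4 libraries, called 432 regions higher in OSCs (4.84%) and 193 higher in ovaries (2.16%) at an adjusted p of 0.05. Distal regions leaned further to OSCs, with 168 of 1283 higher (13.1%) and 30 lower (2.34%), than promoter regions, with 264 of 7647 higher (3.45%) and 163 lower (2.13%). This split depends on scaling. Without normalization, where the median difference of all shared regions was −0.82 on the log2 scale, 210 regions were higher in OSCs and 5559 higher in ovaries. Regions called higher in OSCs had a median GC content of 49.5%, against 46% for those higher in ovaries and 45% over all. With a correction for GC content, added after seeing the data, the counts were 885 and 687, and why both rose was not tested. Without OSC replicate 1 they were 1370 and 1351 of 12065 regions, without OSC replicate 2 they were 2296 and 2414, and without either ovary replicate they were 140 and 46 or 149 and 36. All changes below are therefore relative to the typical shared region, and no called region changed sign under another scaling.

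**Figure D5:**
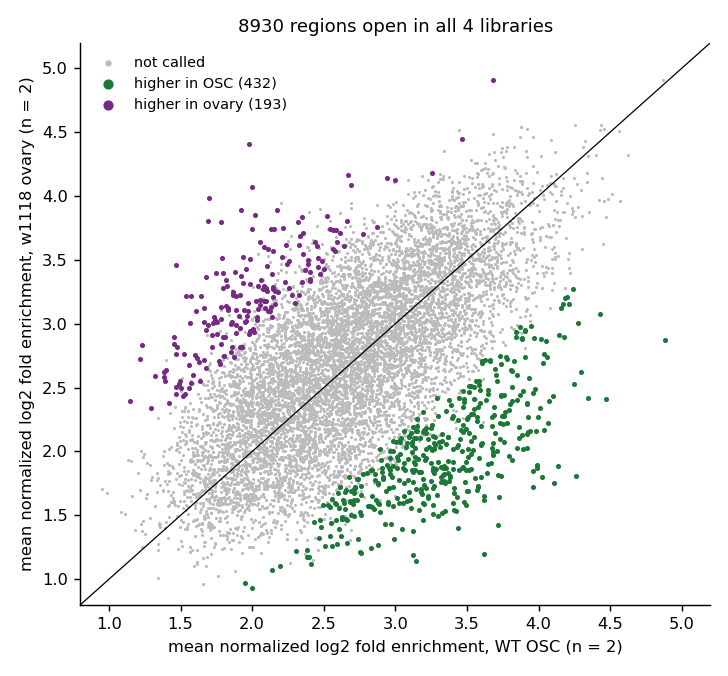
Mean quantile-normalized log2 fold enrichment of each of 8930 shared regions in w1118 ovaries (vertical) against WT OSCs (horizontal, n = 2 libraries each), with a line of equality. Green points are the 432 regions called higher in OSCs and purple points the 193 called higher in ovaries by limma, and grey points were not called.

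The 8 promoter regions with the largest difference in favour of OSCs lay at genes that include several transcription factors and receptors of development. The largest difference was at ich, which encodes the zinc finger factor Ichor, with a fold enrichment of 18.0 and 11.7 in OSCs and 5.602 and 3.12 in ovaries, and a normalized log2 difference of 2.45 ± 0.26 (SE, adjusted p of 0.012 by limma). vri, the bZIP factor Vrille, had 9.26 and 8.401 in OSCs and 2.54 and 2.42 in ovaries (log2 difference 2.42 ± 0.20). tup, the LIM homeobox factor Tailup, had 13.7 and 11.6 in OSCs and 3.91 and 4.11 in ovaries (2.35 ± 0.21), and for, the cGMP-dependent kinase Foraging, had 13.8 and 11.9 in OSCs and 3.78 and 5.26 in ovaries (2.25 ± 0.24). The libraries of the 2 materials did not overlap at any of these. Poxm, CG10019, eg (a nuclear receptor) and htl (an FGF receptor) followed, with log2 differences of 2.24, 2.12, 2.097 and 2.08.

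Promoter regions higher in ovaries included hb, the gap factor Hunchback that the germline supplies to the egg. It had 2.88 and 2.52 in OSCs and 21.9 and 21.2 in ovaries, a log2 difference of −2.29 ± 0.23 (adjusted p of 0.012 by limma). The largest difference, at the promoter of a tRNA gene (tRNA:Leu-CAG-1-1) beside CG30355, was −2.43 ± 0.21, with 2.83 and 3.73 in OSCs and 28.6 and 27.5 in ovaries. Cht2, a chitinase gene, had 2.72 and 4.05 in OSCs and 22.6 and 23.1 in ovaries (−2.08 ± 0.24), and Nox, the NADPH oxidase, had 2.57 and 2.28 in OSCs and 14.7 and 15.9 in ovaries (−1.99 ± 0.22). CG12177, a region in Vps24 at the promoter of MP1, Cirl (the latrophilin receptor) and Eph (the ephrin receptor) had −2.12, −2.01, −1.83 and −1.74. OSC values at all 8 lay between 2.28 and 4.44, below every ovary value there.

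Distal regions differed by similar amounts. Those higher in OSCs with the largest difference lay at CG5004 (11.4 and 8.22 in OSCs, 2.93 and 3.09 in ovaries, log2 difference 2.29 ± 0.22), Mef2, a mesoderm factor (15.5 and 9.63 in OSCs, 4.04 and 4.27 in ovaries, 2.22 ± 0.22), peb, the zinc finger factor Hindsight (12.2 and 10.9 in OSCs, 3.75 and 5.17 in ovaries, 2.12 ± 0.24), and ORY on the Y (17.1 and 17.1 in OSCs, 10.3 and 4.60 in ovaries, 2.06 ± 0.33). Those higher in ovaries lay at Hcf on chromosome 4 (3.13 and 3.02 in OSCs, 19.9 and 21.0 in ovaries, −1.96 ± 0.22), Leash, e(y)3 and Socs36E, the negative regulator of JAK/STAT signalling (−1.53 ± 0.31, adjusted p of 0.035 by limma). Leash, e(y)3 and Socs36E lost the call without ovary replicate 2, with adjusted p of 0.056, 0.060 and 0.086 by limma.

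Follicle cell transcription factors were called in both directions. Of 28 list members with a shared promoter region, 6 had one higher in OSCs (pnt, bab2, Eip75B, Eip74EF, EcR and Abd-B, 21.4% against 4.40% of all 7388 genes with such a region) and 3 had one higher in ovaries (slbo, Stat92E and so, 10.7% against 3.10%). The strongest region of pnt had 11.3 and 8.08 in OSCs and 5.47 and 7.07 in ovaries (log2 difference 1.40 ± 0.24). slbo, the C/EBP factor of border cells, had 2.51 and 3.06 in OSCs and 14.3 and 14.6 in ovaries (−1.69 ± 0.21). Of 17 ecdysone genes, 5 had a region higher in OSCs (EcR, Eip74EF, Eip75B, Hr3 and Ldh, 29.4%) and usp, the partner of EcR, had one higher in ovaries (−0.97 ± 0.20). EcR, Eip74EF and Eip75B are in both lists, so 3 of the 5 ecdysone calls repeat calls of the follicle cell list, and a gene with more shared regions had more chances of a call (8 at EcR and 7 at Eip75B). In the other lists, armi and spn-E (piRNA pathway, 2.04 and 1.55), LanB1 and a region of Mmp1 (basement membrane and its protease, 1.73 and 1.47), Wnt6, dpp and put (1.31, 0.91 and 0.96), vg (1.23), pb (1.52), Mlc2 and Prm (1.54 and 1.58), vas (0.90) and RpS21 (1.04) were higher in OSCs, and another region of Mmp1 was called higher in ovaries. The chorion gene Cp7Fc was also called higher in OSCs, with 4.05 and 6.52 in OSCs and 4.47 and 2.97 in ovaries. Before normalization the values of bab2, Abd-B, dpp, RpS21 and Cp7Fc overlapped between the materials, so these calls are relative to the other shared regions. The vas call (adjusted p of 0.0496 by limma) was for a region at chr2L:15060634-15060927, upstream of the gene's start at 15061656. Its fold enrichment was 5.89 and 5.80 in OSCs and 5.19 and 5.28 in ovaries. Egfr (−1.06), Tgi (−1.38), Mcm3 (−1.14) and unc-13 (−1.73) were higher in ovaries.

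Short sequence words were counted in windows of 200 bp around the summits, on both strands. The 17 words searched were AGATAA (bound by Serpent and Pannier), TGANTCA (AP-1), GGAATG (Scalloped), TTCNNNGAA (STAT), TGCTGA (large Maf factors such as Traffic jam), CCGTTA (Ovo), TATCGATA (DREF), GAGAGA (Trithorax-like), GGTCACAC (M1BP), CACGTG (E-box), CAGGTA (Zelda), AGGTCA (nuclear receptors), GTAAACA (forkhead), CCGGAA (Ets), CACACACA (CA repeat), TGTGGT (Runx) and GTGGGAA (Su(H)), of which no pair was treated as exclusive. In distal regions GGAATG was found in 12.7% of OSC-only windows, against 8.78% of ovary-only windows wider than 100 bp and 10.1% of all distal windows. TGCTGA was found in 18.5% of OSC-only, 15.3% of wide ovary-only and 15.8% of all distal windows. GTAAACA was found in 5.85%, 4.13% and 4.14%, and in 6.24% of shared distal windows. In windows of at most 45% GC it was found in 9.30% of OSC-only, 5.05% of wide ovary-only and 6.81% of all. CAGGTA had the opposite order, with 1.91% of OSC-only, 5.32% of wide ovary-only and 3.98% of all distal windows, and CCGTTA likewise, with 2.24%, 5.22% and 3.36%. Shared distal windows held CAGGTA in 1.71% and CCGTTA in 4.52% of cases. The words were also counted in distal regions of OSC replicate 2 open in neither ovary library, with or without a peak of OSC replicate 1. There the shares were 11.6% for GGAATG, 16.9% for TGCTGA, 6.64% for GTAAACA, 1.82% for CAGGTA and 2.34% for CCGTTA. These 4395 regions include the 2412 OSC-only ones, and a window could be centred on a summit of OSC replicate 1. A word in a window does not show that its factor was bound.

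In promoter windows the large Maf, Ovo and Zelda words differed between OSC-only and wide ovary-only regions in the same direction as in distal regions. TGCTGA was found in 16.1% of OSC-only, 12.9% of wide ovary-only and 11.8% of all promoter windows, and CCGTTA in 4.52%, 7.60% and 6.05%. Shared promoter windows held TGCTGA in 10.3% and CCGTTA in 7.14% of cases. GGAATG was found in 9.19% of OSC-only and 8.16% of wide ovary-only promoter windows, and in those of at most 45% GC the direction turned, with 4.72% and 7.34%. TATCGATA was found in 7.87% of shared promoter regions, against 0.968% of OSC-only and 1.59% of wide ovary-only ones and 4.96% of all, and GGTCACAC in 9.17%, 0.565%, 1.03% and 4.79%. These are words of promoters used in all cells, and they were less frequent in promoter regions open in a single material than in shared ones. Summits lay a median of 417 bp from the nearest TSS in OSC-only, 327 bp in ovary-only and 56 bp in shared promoter regions. The part of this distance in the shares was not tested. In windows of at most 45% GC, TATCGATA was found in 4.33% of OSC-only, 2.50% of wide ovary-only and 8.92% of all promoter windows. CAGGTA was found in 2.50% of OSC-only, 8.30% of wide ovary-only and 4.92% of all promoter windows. GTAAACA was found in 7.66% of OSC-only, 6.15% of wide ovary-only, 6.66% of shared and 6.29% of all promoter windows. It reached 19.3% in OSC-only promoter windows of at most 45% GC (n = 254). Wide ovary-only and all promoter windows of that GC content held it in 7.74% and 8.86% of cases. GAGAGA was most frequent in shared distal regions, at 26.2%, against 12.3% of OSC-only, 11.9% of wide ovary-only and 10.4% of all distal regions. The median GC content of the windows was 49.0% in OSC-only, 43.5% in wide ovary-only and 47.0% in shared distal regions, and its part in these shares was examined only by the restriction to 45% GC.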

How the data were processed

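The authors made ATAC-seq libraries by the omni-ATAC protocol, trimmed reads (cutadapt 1.18), aligned them to dm6 (BWA), marked duplicates (Picard 2.9.0), filtered (SAMtools 1.9) and called peaks per library (MACS2 2.1.1.20160309, q-value up to 0.05), with a shift of −37 bp and an extension of 73 bp. The deposited lists give each peak's fold enrichment, a ratio to the local background of the same library, and its q-value and p-value as −log10. The authors did not scale these values between libraries, so peak number and fold depend on depth and signal. Display scores, coverage tracks and the authors' table of their own comparison of OSC genotypes (log2 fold changes and adjusted p-values) were not used.

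The 22037 peaks with the highest −log10 q were taken per library and annotated with Ensembl release 115 (18277 genes, 24111 TSSs). Distal regions took the protein-coding gene they lay in or that with the nearest TSS. Presence was counted without a test. Shared regions were tested with limma 3.58.1 (R 4.3.3) on log2 fold enrichment, without a pseudocount, after quantile normalization, with Benjamini-Hochberg adjustment, and single values by exact permutation. Python 3.11.15, NumPy 2.4.6, pandas 2.3.3, SciPy 1.17.1 and Matplotlib 3.10.9 were used, and the procedures were tested on simulated data. Members and the 19 gene lists (351 of 355 genes matched) were chosen with earlier results of these data known. Named were list members and markers open in one material, the 12 promoters and 8 distal regions per class with the highest lower fold enrichment, the 8 genes with most distal regions per class, and the shared regions with the largest called differences.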

Additional observations from a re-analysis of the deposited data

How the results depend on the processing

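The counts moved with the choice of peaks. With 10000 top peaks per library there were 1955 OSC-only, 2006 ovary-only and 4827 shared regions, with 43.2%, 63.2% and 91.5% at promoters, and 35 and 7 shared regions were called. At a −log10 q of at least 10 there were 2051 OSC-only regions and 376 OSC-only promoters, and 52.2% of ovary-only regions lay at promoters. That share was 44.4% with all deposited peaks, 51.3% with an overlap of at least 50%, 44.5% with absence from the full and merged lists and 55.9% with peaks wider than 100 bp (added after seeing the data). The last but one left 288 ovary-only promoters and all deposited peaks 347, and either kept 2 of the 12 named ovary-only promoters. A promoter of 0.2 kb gave 370 OSC-only promoters and shares at promoters of 15.8%, 21.9% and 71.6% for OSC-only, ovary-only and shared regions.

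Shared regions called higher in OSCs and higher in ovaries numbered 210 and 5559 without normalization, 981 and 528 with median centring and 885 and 687 with the GC correction (added after seeing the data). Of the 625 called regions, 392, 611 and 617 kept the call in these fits, 606 with log2(fold enrichment + 1), and none changed sign. Of 240 values of the 24 named regions under the alternatives, 237 kept the call, 3 lost it and none reversed.

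Leaving out each library in turn gave 3935 to 11136 OSC-only regions, 6439 to 8603 ovary-only regions, 724 to 2023 OSC-only promoters, 886 to 1476 ovary-only promoters, 46.2% to 61.1% of ovary-only regions at promoters, and 140 to 2296 regions called higher in OSCs and 36 to 2414 higher in ovaries. The extremes at the high end came without OSC replicate 2. A fit with one library in a group assumes that it varies like the other group.

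The replicate numbers share only a number: no label pairs cultures with ovaries, and the deviations of same-numbered libraries correlated at −0.23 over the shared regions (2 pairs). A fit with a replicate block called 610 regions higher in OSCs and 398 higher in ovaries, with 624 of the 625 calls kept. With 2 libraries a group, depth and number limit what presence and absence can show, and a region outside the top peaks may still be accessible below the depth of that library.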
